A study of Caenorhabditis elegans with 123 samples.

Results

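The 10 genes nos-1, nos-2, pgl-1, pgl-3, glh-1, deps-1, meg-1, meg-2, cgh-1 and xnd-1 encode proteins of the germ granules and primordial germ cells of Caenorhabditis elegans. They were chosen by name, as all probe sets that the platform annotation maps to exactly 1 of these symbols. All 10 are on the array, with 14 probe sets, out of 17118 genes with a single symbol. meg-1 has 3 probe sets and glh-1 and cgh-1 have 2 each, and the brightest stands for its gene. The other 7 genes have 1 each. All 4 probe sets whose name ends in _s_at, the maker's mark for probes shared by several transcripts, belong to nos-2, pgl-1, glh-1 and meg-1, and nos-2 and pgl-1 are read by such a probe set alone. A further nos-2 probe set is annotated to several genes and was left out by the rule.

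In the worm embryo the germline descends from a series of P blastomeres, the last of which divides to give the primordial germ cells. These blastomeres inherit the germ plasm with its P granules, which are condensates of RNA and protein. Most of the RNAs that build it are made in the mother. They are cleared from somatic blastomeres in early cleavage and kept longer in the germ lineage, where PIE-1 also holds transcription off. In RNA of whole embryos such a transcript is averaged over all cells.

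Embryos were staged at the 4-cell stage and kept at 22 °C for 0, 23, 41, 53, 66, 83, 101, 122, 143 or 186 min, and total RNA of small pools was hybridised to Affymetrix C. elegans arrays. The genotypes were mex-3(zu155); skn-1(RNAi), written mex-3/skn-1 here, with 28 arrays, pie-1(zu154), written pie-1, with 27 arrays, pie-1(zu154); pal-1(RNAi), written pie-1/pal-1, with 34 arrays, and the wild-type strain N2, with 34 arrays. MEX-3 binds RNA and keeps pal-1 from being translated anteriorly, SKN-1 is a transcription factor of the EMS lineage, PIE-1 is a zinc finger protein of the germ blastomeres, and PAL-1 is a homeodomain protein of the posterior lineages. The RNA interference was by feeding, per the array description files, and each of the 40 combinations of genotype and time has 2 to 4 arrays. In pie-1 embryos the germ blastomeres are known to take on a somatic fate, so the pools do not have the same cells as N2 pools, and fewer germ cells and less RNA per germ cell cannot be told apart. The cells of mex-3/skn-1 pools may differ from those of N2 pools as well, which was not measured. Nothing in the labels says that replicates came from separate collections, so all p-values measure the spread between arrays, which may be technical.

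The pie-1 transcript itself read 3.16 to 3.76 in early pie-1 arrays and 3.15 to 3.76 in early pie-1/pal-1 arrays, against 6.86 to 8.20 in early N2 arrays, with no overlap. mex-3 read 3.16 to 3.95 in early mex-3/skn-1 arrays, against 6.38 to 9.02 in early N2 arrays. In the late window it read 3.37 to 6.36 in mex-3/skn-1, against 4.30 to 5.33 in N2: the array labelled mex-3/skn-1 186 min replicate 7 lay above all late N2 arrays, and the other 11 lay below all of them. Leaving out that array changed the call of none of the 10 genes in any comparison. The RNAi targets overlapped in range. Early pal-1 covered 4.95 to 12.21 (median 5.55) in pie-1/pal-1 and 7.53 to 9.08 (median 8.19) in pie-1. The early pie-1/pal-1 median of pal-1 thus lay below all early pie-1 arrays, and the overlap came from its higher arrays. Late pal-1 was not lower by its median, with 5.36 to 10.32 (median 6.39) in pie-1/pal-1 and 4.57 to 7.81 (median 6.32) in pie-1. Early skn-1 covered 3.30 to 3.93 (median 3.67) in mex-3/skn-1 and 3.67 to 4.74 (median 3.91) in N2. Single arrays of both pie-1 genotypes also read far above the median of their window. The highest late mex-3 value was 9.46 in pie-1/pal-1 (median 4.15) and 6.09 in pie-1 (median 3.85), against 5.33 in N2. The highest middle pal-1 value in pie-1 was 12.49 (median 7.55). Array medians lay between 3.24 and 3.41 on the deposited log2 scale, and the 75th percentile averaged 4.09 in mex-3/skn-1 embryos, 4.11 in pie-1, 4.14 in pie-1/pal-1 and 4.41 in N2. The difference of the GAPDH 3′ and 5′ control probe sets, a measure of RNA quality, was 1.48 ± 0.39, 1.19 ± 0.38 and 1.40 ± 0.30 in these mutants, against 0.77 ± 0.27 in N2 (log2, SD over 28, 27, 34 and 34 arrays). Markers of adult soma (6 genes) and of sperm (8 genes) averaged 3.03 and 3.18 in mex-3/skn-1, 3.04 and 3.11 in pie-1 embryos, 3.07 and 3.10 in pie-1/pal-1 and 2.99 and 3.16 in N2. These list averages lay below the lowest array median, and none of the markers was called between windows in any genotype. Single markers lay above it in every genotype, among them vit-5, vit-6 and ssp-10. Their highest group means were 4.54 (vit-5, pie-1/pal-1 at 0 min), 4.41 (vit-6, pie-1 at 0 min) and 3.90 (ssp-10, N2 at 101 min). Over all probe sets, 3 mex-3/skn-1 arrays were flagged as outlying by their distance from the group mean, both at 143 min and replicate 5 at 0 min. The 143 min group has only these 2 arrays. They differed from each other, and which of them is unusual cannot be told. The description files of mex-3/skn-1 186 min replicate 5 and pie-1/pal-1 122 min replicate 5 note 143 min where the labels give these times, and the labels were followed.

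Most of the 10 genes fell in N2 between 0 and 186 min. Times were grouped into an early window (0, 23 and 41 min), a middle window (53, 66 and 83 min) and a late window (101, 122, 143 and 186 min), each the unweighted mean of its times. Calls, for which alone rose or fell is written, needed an adjusted p under 0.05 in limma's moderated test over all 22548 probe sets together with a difference of at least 2-fold (1 on the log2 scale). Between the early and the late window 8 of the 10 genes fell in N2, and 8.24% of all probe sets fell. The exceptions were glh-1 and meg-2. The median of the 10 was -2.28, against 0.02 over all probe sets. In mex-3/skn-1 5 of the 10 fell (background 5.81%), in pie-1 6 fell (8.28%) and 4 fell in pie-1/pal-1 (6.13%), with medians of -1.02, -1.39 and -0.94. No gene of the 10 rose in any genotype, while 4.11%, 5.46%, 6.80% and 6.70% of all probe sets rose in mex-3/skn-1, then pie-1, then pie-1/pal-1, and in N2. The genes that fell in every genotype were nos-2, pgl-1, deps-1 and meg-1. All N2 arrays of the late window lay below all those of the early window for 7 genes (7.05% of all probe sets), and this held for 3 genes in mex-3/skn-1 embryos (1.32%), 4 in pie-1 embryos (6.70%) and 3 in pie-1/pal-1 (3.02%). The fall of pgl-1 in mex-3/skn-1 was under 2-fold with arrays centred on the brighter probe sets (mean of at least 5), at -0.92, and at the times whose N2 replicates are named by numbers (23, 53, 83, 122 and 186 min), at -0.83.

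**Figure D1:**
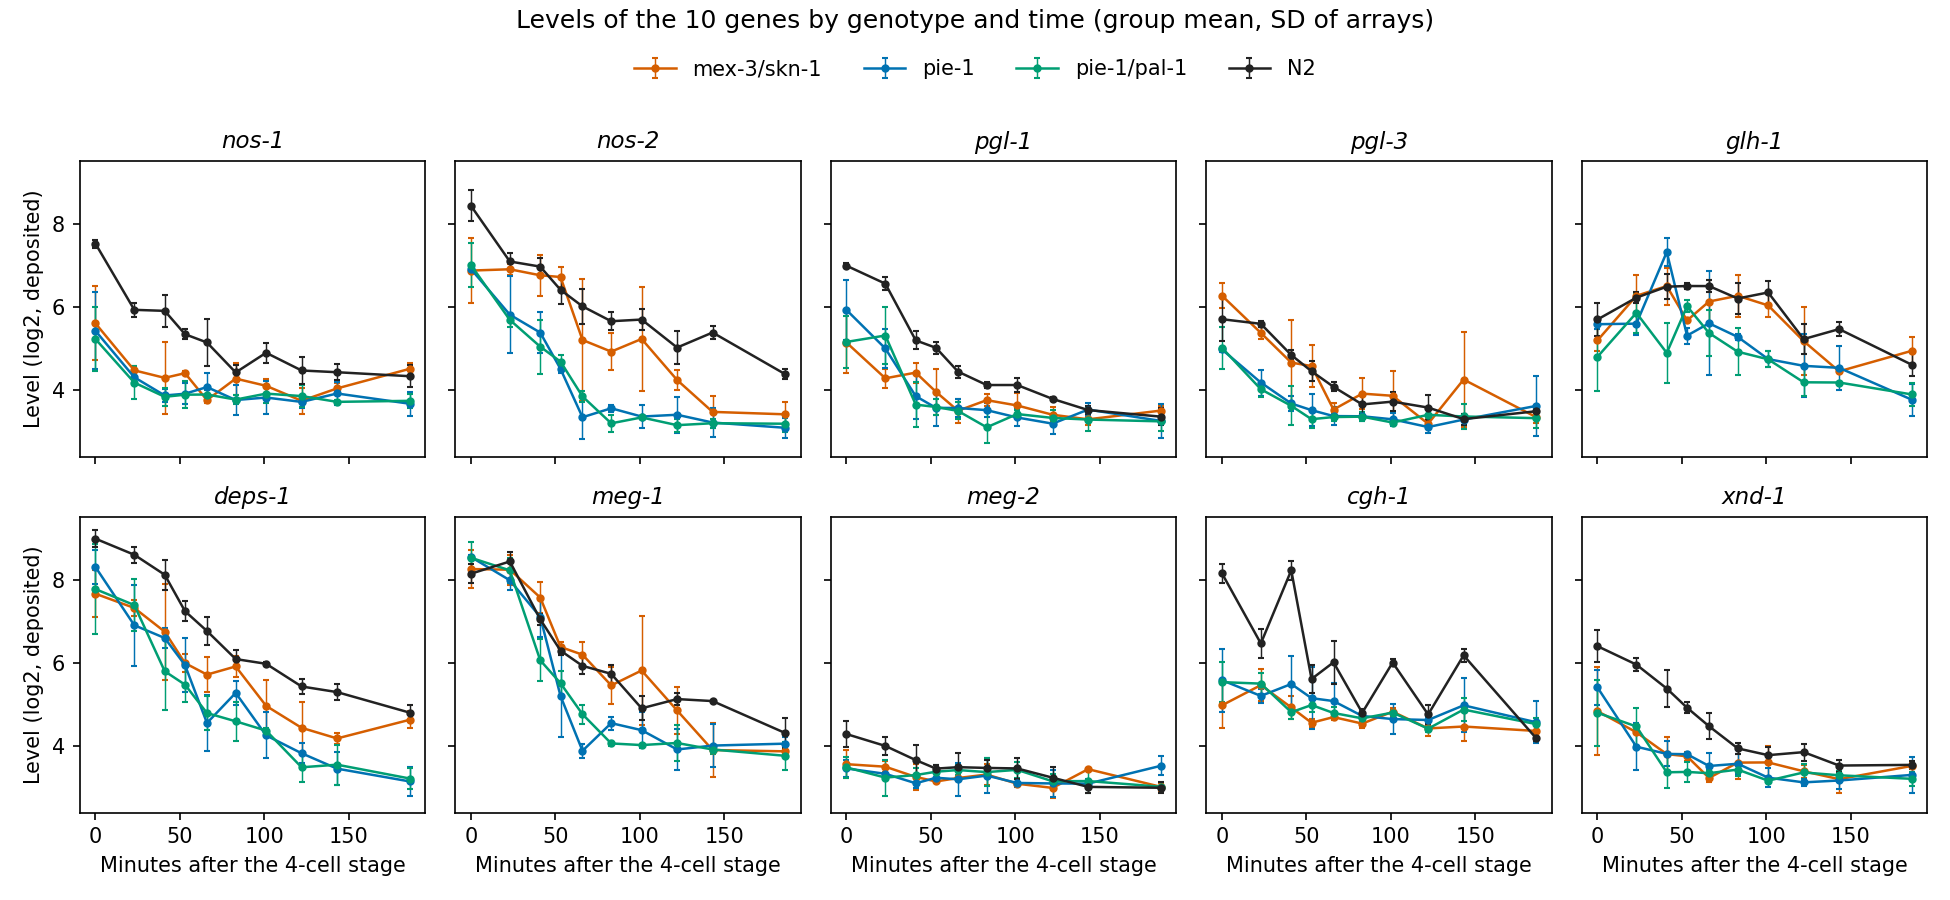
Level of each gene (log2, deposited scale) against minutes after the 4-cell stage in mex-3/skn-1, then pie-1, then pie-1/pal-1, and in N2. Points are means of 2 to 4 arrays and bars their SD. nos-2, deps-1 and meg-1 fall in all 4 genotypes, glh-1 in N2 stays near its early level up to 101 min, and cgh-1 in N2 alternates between times.

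**Figure D2:**
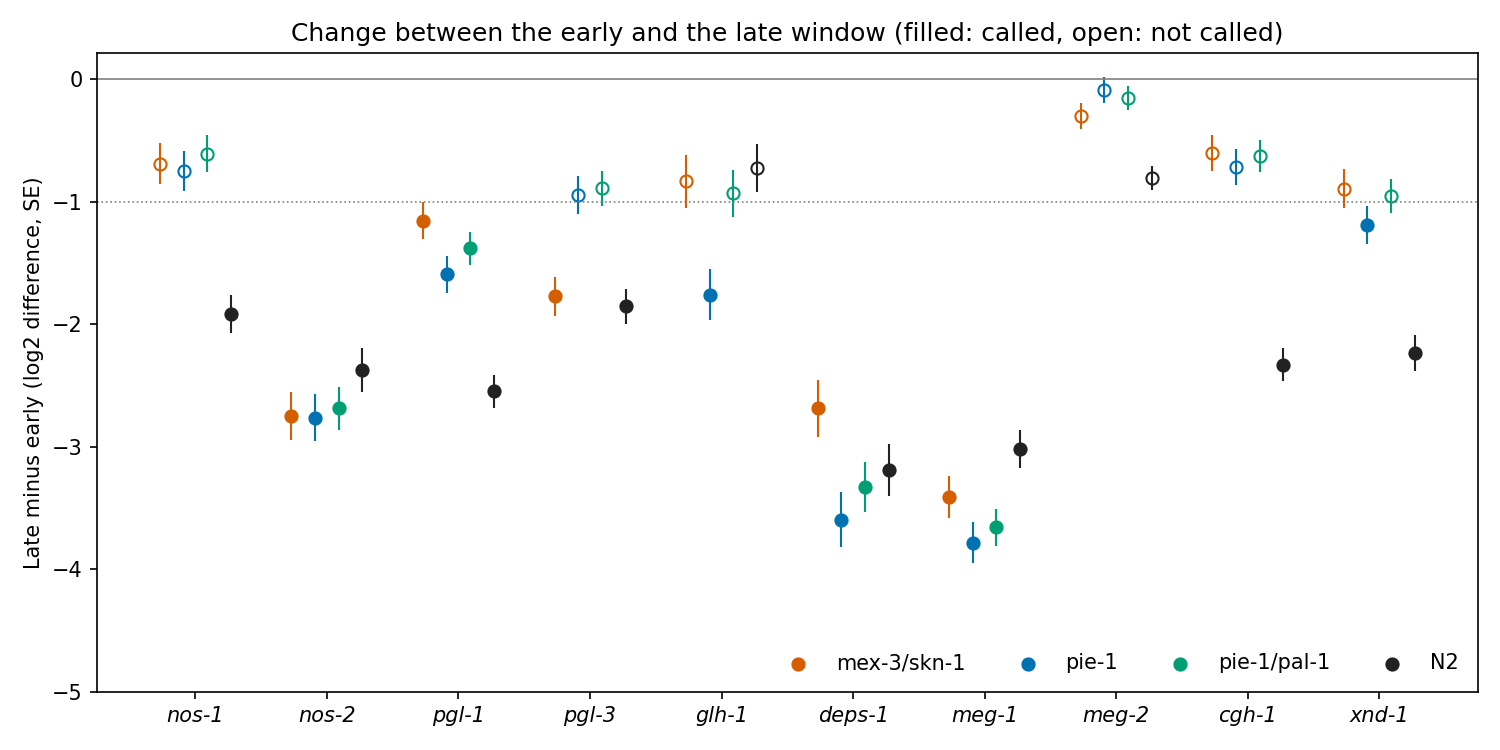
Late minus early difference (log2, with the SE of the fit) for each gene in mex-3/skn-1, then pie-1, then pie-1/pal-1, and in N2, with called differences filled and the 2-fold line dotted. In N2 8 of 10 genes are filled. nos-1, pgl-1, pgl-3, meg-2, cgh-1 and xnd-1 have smaller differences in each mutant than in N2, pgl-3 in mex-3/skn-1 only slightly (-1.77 against -1.85).

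Both Nanos genes encode zinc finger proteins that repress translation with Pumilio partners, and nos-2 RNA is known to be maternal and translated only in the last germ blastomere. nos-2 read 5.99 to 7.45 (median 6.94) in early mex-3/skn-1 arrays, 4.77 to 6.97 (median 5.97) in early pie-1 arrays, 4.30 to 7.78 (median 5.87) in early pie-1/pal-1 arrays and 6.76 to 8.84 (median 7.11) in early N2 arrays. Late arrays read 3.19 to 6.12 (median 3.89) in mex-3/skn-1, 2.82 to 3.91 (median 3.24) in pie-1, 2.90 to 3.38 (median 3.25) in pie-1/pal-1 and 4.30 to 5.98 (median 5.30) in N2. Late and early arrays did not overlap in pie-1, pie-1/pal-1 or N2, and overlapped in mex-3/skn-1 through 1 late array, replicate 4 at 101 min, which read 6.12 where the other array of that time read 4.35. Without that array the mex-3/skn-1 change was -2.97. The late minus early difference was -2.75 ± 0.20 in mex-3/skn-1 embryos, -2.76 ± 0.19 in pie-1, -2.69 ± 0.17 in pie-1/pal-1 and -2.37 ± 0.18 in N2 (log2 ± SE), and all 4 were called (largest limma adjusted p = 2.2e-21). Late nos-2 was lower in both pie-1 genotypes than in N2, with differences of -1.85 ± 0.17 in pie-1 embryos and -1.90 ± 0.17 in pie-1/pal-1 (limma adjusted p = 2.3e-15 and 6.4e-16), and no late array of either overlapped N2.

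In both pie-1 genotypes the difference of nos-2 to N2 was largest in the middle window. Arrays there read 2.84 to 4.59 (median 3.63) in pie-1 embryos and 3.07 to 4.87 (median 3.88) in pie-1/pal-1, against 5.41 to 6.78 (median 5.95) in N2, again without overlap. At 66 min the arrays read 3.34, 2.84 and 3.88 in pie-1 embryos and 3.69, 3.96, 3.83 and 3.93 in pie-1/pal-1, against 5.55, 5.87, 6.55 and 6.10 in N2. The middle window was compared between genotypes after the group means had been seen. The difference to N2 was -2.22 ± 0.20, limma adjusted p = 2.8e-15 in pie-1 embryos and -2.11 ± 0.18, limma adjusted p = 4.9e-17 in pie-1/pal-1. mex-3/skn-1 arrays read 4.17 to 6.89 (median 5.31), across the N2 range, and the difference was not called (-0.41 ± 0.20, limma adjusted p = 0.12). In that genotype the 53 min mean was still 6.72 (arrays of 6.89 and 6.55), against 6.41 in N2, and the 186 min mean was 3.42, against 4.38. The higher 53 min array, replicate 4, shared its scan day with replicate 4 at 101 min. The late call in mex-3/skn-1 (-1.03 ± 0.17) was lost when any of 4 single arrays was left out (N2 101 min replicate H, N2 122 min replicate 4, mex-3/skn-1 101 min replicate 2 or mex-3/skn-1 143 min replicate 5), with -0.81 to -0.99.

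nos-1 is known in worms to act later, in the primordial germ cells. Between the early and the late window it fell in N2, and in the mutants that change stayed under 2-fold. Early arrays read 3.39 to 6.48 (median 4.62) in mex-3/skn-1, 3.77 to 6.08 (median 4.24) in pie-1, 3.57 to 6.15 (median 4.19) in pie-1/pal-1 and 5.47 to 7.62 (median 6.09) in N2. Late arrays read 3.56 to 4.67 (median 4.17) in mex-3/skn-1, 3.37 to 4.23 (median 3.77) in pie-1, 3.55 to 4.17 (median 3.77) in pie-1/pal-1 and 4.07 to 5.11 (median 4.58) in N2. Each mutant's median lay further below that of N2 early than late, and all ranges overlapped N2 in both windows. At 0 min the mutants averaged 5.61, 5.43 and 5.23 in mex-3/skn-1, then pie-1, then pie-1/pal-1, against 7.52 in N2. In all 4 genotypes the mean lay at least 1 (log2) below that of 0 min from 23 min on, within the early window. From 0 to 186 min, with no test, the means changed by -1.09, -1.75 and -1.49 in the mutants, against -3.19 in N2. The early difference to N2 was -1.66 ± 0.17, -1.92 ± 0.17 and -2.04 ± 0.16 in the same order (largest limma adjusted p = 2.1e-13). The late minus early difference was -0.69 ± 0.17, -0.75 ± 0.16 and -0.61 ± 0.15, against -1.92 ± 0.15 in N2. The difference between each of these changes and that of N2 was itself called, at 1.23 ± 0.23, 1.17 ± 0.22 and 1.31 ± 0.21 (largest limma adjusted p = 1.7e-04). Without pie-1 0 min replicate 3 the pie-1 value was 0.95, under the 2-fold limit.

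**Figure D3:**
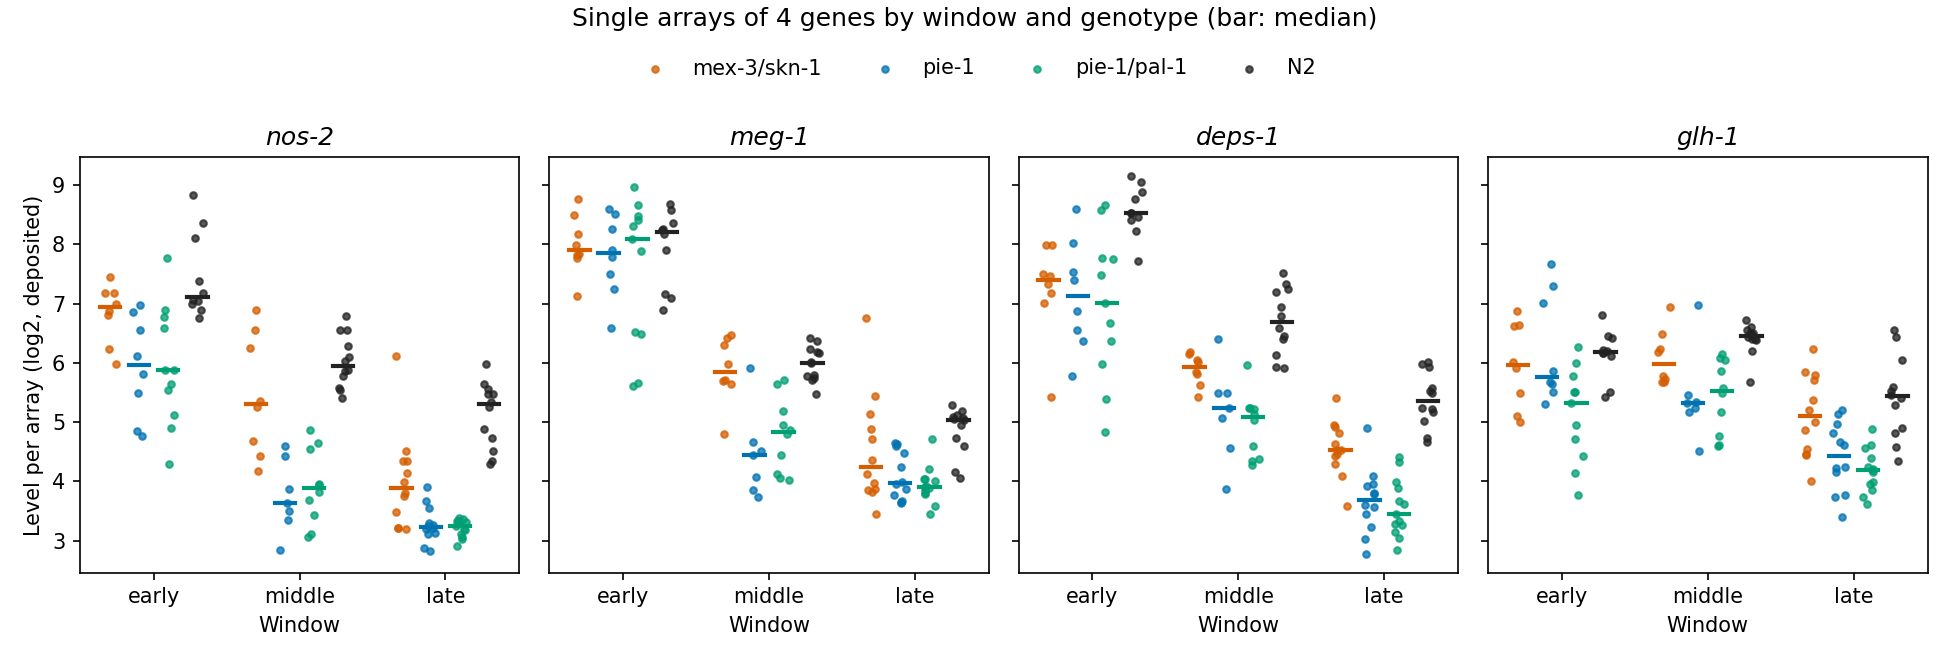
Single arrays (points, log2 level) of nos-2, meg-1, deps-1 and glh-1 in the early, middle and late window, with mex-3/skn-1, then pie-1, then pie-1/pal-1, and in N2 from left to right and a bar at each median. For nos-2 the middle and late arrays of both pie-1 genotypes lie below all N2 arrays of the same window.

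PGL-1 and PGL-3 are the RGG-box proteins that form the scaffold of P granules. pgl-1 read 4.12 to 5.90 (median 4.44) in early mex-3/skn-1 arrays, 3.43 to 6.45 (median 4.81) in early pie-1 arrays, 3.12 to 6.03 (median 4.68) in early pie-1/pal-1 arrays and 4.98 to 7.05 (median 6.59) in early N2 arrays. In the late window it read 3.21 to 3.84 (median 3.43) in mex-3/skn-1, 2.92 to 3.73 (median 3.36) in pie-1, 2.99 to 3.61 (median 3.28) in pie-1/pal-1 and 3.18 to 4.24 (median 3.68) in N2. Late arrays lay below all early ones in mex-3/skn-1 and N2, and the late arrays of all 4 genotypes overlapped each other. The late medians lay close to the array medians (3.24 to 3.41), where differences may be compressed, which was not tested. The late minus early difference was -1.15 ± 0.15, -1.59 ± 0.15 and -1.38 ± 0.13 in mex-3/skn-1, then pie-1, then pie-1/pal-1, against -2.55 ± 0.14 in N2, all called (largest limma adjusted p = 3.8e-10). In N2 the mean was 5.20 at 41 min, against 6.99 at 0 min. The early difference to N2 was -1.63 ± 0.15, -1.32 ± 0.15 and -1.54 ± 0.14 (largest limma adjusted p = 6.6e-11), and the late difference, at -0.24 ± 0.13, -0.37 ± 0.13 and -0.37 ± 0.13, was called in none.

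pgl-3 was lower than N2 early in both pie-1 genotypes. Its early arrays read 3.51 to 6.62 (median 5.44) in mex-3/skn-1, 3.49 to 5.02 (median 4.03) in pie-1, 3.05 to 5.55 (median 4.13) in pie-1/pal-1 and 4.70 to 6.16 (median 5.54) in N2. Ranges overlapped, but the difference to N2 was called in pie-1 (-1.10 ± 0.16, limma adjusted p = 9.3e-08) and pie-1/pal-1 (-1.16 ± 0.15, limma adjusted p = 6.7e-10) and was 0.06 ± 0.16, limma adjusted p = 0.81 in mex-3/skn-1. The difference between mex-3/skn-1 and pie-1 itself was not tested. Both calls were lost with arrays centred on brighter probe sets (-0.87 and -0.81). Late arrays read 3.07 to 5.07 (median 3.37) in mex-3/skn-1, 2.95 to 4.47 (median 3.21) in pie-1, 3.06 to 3.63 (median 3.32) in pie-1/pal-1 and 3.19 to 3.98 (median 3.54) in N2. These medians too lay close to the array medians. pgl-3 fell in mex-3/skn-1 (-1.77 ± 0.16, against -1.85 ± 0.15 in N2), while the differences of -0.95 ± 0.16 in pie-1 embryos and -0.89 ± 0.14 in pie-1/pal-1 stayed under 2-fold (largest limma adjusted p of these 4 = 2.0e-07). The highest late mex-3/skn-1 array, at 5.07, was 1 of the 2 arrays at 143 min that differed from each other, the other reading 3.45.

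glh-1, which encodes a Vasa-like DEAD-box helicase of P granules, was called different from its early level in no genotype by the middle window. N2 means were 5.70, 6.22, 6.49, 6.50, 6.50, 6.20 and 6.35 from 0 to 101 min, and 5.23, 5.47 and 4.61 at 122, 143 and 186 min. Early arrays read 5.00 to 6.87 (median 5.96) in mex-3/skn-1, 5.30 to 7.66 (median 5.76) in pie-1, 3.77 to 6.26 (median 5.32) in pie-1/pal-1 and 5.43 to 6.80 (median 6.18) in N2. Late arrays read 4.01 to 6.23 (median 5.10) in mex-3/skn-1, 3.39 to 5.20 (median 4.43) in pie-1, 3.62 to 4.88 (median 4.19) in pie-1/pal-1 and 4.35 to 6.56 (median 5.44) in N2. Late and early arrays overlapped in all genotypes except pie-1, where glh-1 fell by 1.76 ± 0.21 on the log2 scale (limma adjusted p = 8.1e-12). The second glh-1 probe set did not give this call, with -0.74 ± 0.15 in pie-1. The change was -0.83 ± 0.21 in mex-3/skn-1 embryos, -0.93 ± 0.19 in pie-1/pal-1 and -0.72 ± 0.19 in N2, each under 2-fold. The middle minus early difference was 0.04 ± 0.23 in mex-3/skn-1 embryos, -0.77 ± 0.24 in pie-1, 0.25 ± 0.20 in pie-1/pal-1 and 0.27 ± 0.19 in N2, none called. The early pie-1 means were 5.59, 5.60 and 7.32 at 0, 23 and 41 min, the last the highest of the series, and its middle means were 5.31, 5.61 and 5.28 at 53, 66 and 83 min. Late glh-1 was lower in both pie-1 genotypes than in N2, with differences of -1.004 ± 0.18 in pie-1 embryos and -1.16 ± 0.18 in pie-1/pal-1 (larger limma adjusted p = 8.2e-06). The pie-1 difference sits at the 2-fold limit: leaving out single arrays gave -1.08 and -0.90, and the call was lost without any 1 of 13 arrays (N2 101 min replicates H and R, 122 min 1 and 4, 143 min L and M and 186 min 4, and pie-1 101 min replicates 3 and 4, 122 min 3, 143 min 3 and 4 and 186 min 3). The second glh-1 probe set gave -0.77 ± 0.13 in pie-1 embryos and -0.72 ± 0.13 in pie-1/pal-1, both under 2-fold. That probe set was called lower than N2 early in pie-1/pal-1 (-1.01 ± 0.14) and in the middle window in both (-1.15 ± 0.16 in pie-1 embryos and -1.26 ± 0.14 in pie-1/pal-1). With arrays centred on the brighter probe sets these late differences were -0.62 and -0.91, also under 2-fold. In N2 the late glh-1 level was 0.99 higher at times with lettered arrays (101 and 143 min) than at times with numbered arrays (122 and 186 min), 2 kinds of replicate name in the labels. Time and kind of name are not separated there, since the last time is a numbered one. At 66 min, which has both kinds, lettered minus numbered was 0.15, and over the early times it was -0.13.

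deps-1, needed for P granule assembly and RNA interference in the germline, fell in all 4 genotypes with no overlap between late and early arrays. Early arrays read 5.42 to 7.99 (median 7.39) in mex-3/skn-1, 5.78 to 8.59 (median 7.13) in pie-1, 4.83 to 8.66 (median 7.00) in pie-1/pal-1 and 7.72 to 9.15 (median 8.52) in N2. Late arrays read 3.58 to 5.41 (median 4.53) in mex-3/skn-1, 2.78 to 4.90 (median 3.69) in pie-1, 2.84 to 4.42 (median 3.44) in pie-1/pal-1 and 4.67 to 6.02 (median 5.36) in N2. Late pie-1/pal-1 arrays lay below all late N2 arrays, while late pie-1 and mex-3/skn-1 arrays overlapped them. The late minus early difference was -2.69 ± 0.23 in mex-3/skn-1 embryos, -3.59 ± 0.23 in pie-1, -3.33 ± 0.21 in pie-1/pal-1 and -3.19 ± 0.21 in N2, or 12.1-fold in pie-1 and 9.1-fold in N2. Against N2, deps-1 was lower in both pie-1 genotypes in every window, with differences of -1.30 ± 0.24 and -1.58 ± 0.22 early, -1.44 ± 0.24 and -1.74 ± 0.21 in the middle and -1.70 ± 0.20 and -1.72 ± 0.20 late (largest limma adjusted p = 1.1e-05). With arrays centred on the brighter probe sets the middle difference in pie-1 was -0.95 and no longer called, while the other 5 were. In mex-3/skn-1 the difference was called early (-1.32 ± 0.24) and was -0.82 ± 0.23 and -0.82 ± 0.21 in the middle and late windows. The early value was under 2-fold with the GAPDH difference in the fit, at -0.92, and with the centring, at -0.79. Its change over time was not called different from that of N2 in any mutant, with 0.50 ± 0.31, -0.41 ± 0.31 and -0.14 ± 0.29.

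MEG-1 and MEG-2 are disordered proteins of the germ granules that act in germ cell survival, and their genes are neighbours in the RefSeq table (assembly WBcel235). With its brightest probe set, meg-1 was called lower than N2 in no mutant early, and it was called lower in both pie-1 genotypes in the middle window. Its early arrays read 7.13 to 8.76 (median 7.91) in mex-3/skn-1, 6.58 to 8.59 (median 7.85) in pie-1, 5.60 to 8.96 (median 8.09) in pie-1/pal-1 and 6.89 to 8.68 (median 8.21) in N2, and all ranges overlapped. The early difference to N2 was 0.15 ± 0.17, 0.00 ± 0.17 and -0.27 ± 0.16. Middle arrays read 4.81 to 6.47 (median 5.84) in mex-3/skn-1, 3.74 to 5.91 (median 4.44) in pie-1, 4.02 to 5.71 (median 4.84) in pie-1/pal-1 and 5.48 to 6.41 (median 6.00) in N2. At 66 min the arrays were 3.74, 3.85 and 4.07 in pie-1 embryos and 4.87, 4.44, 4.80 and 4.95 in pie-1/pal-1, against 5.74, 6.19, 5.79 and 6.01 in N2, and the groups did not overlap at that time. Over the middle window the difference to N2 was -1.44 ± 0.17, limma adjusted p = 3.7e-10, in pie-1, -1.21 ± 0.16, limma adjusted p = 1.1e-09, in pie-1/pal-1, and 0.03 ± 0.17 in mex-3/skn-1. Centred on the brighter probe sets, arrays gave -0.95 and -0.85 in both pie-1 genotypes, neither called. The difference between the early fall (middle minus early) in pie-1 and that in N2 was -1.44 ± 0.25, limma adjusted p = 1.1e-04. In pie-1/pal-1 it was -0.93 ± 0.22, limma adjusted p = 0.0085, under 2-fold. At the times with numbered N2 arrays the pie-1 value was -0.69, not called. By the late window the differences to N2 were -0.25 ± 0.15, -0.76 ± 0.15 and -0.91 ± 0.15, none called, and with this probe set the late minus early fall was 10.6-fold, 13.8-fold and 12.6-fold in mex-3/skn-1, then pie-1, then pie-1/pal-1, against 8.1-fold in N2.

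The 3 meg-1 probe sets did not read alike in every comparison. The second brightest gave -1.25 ± 0.19 and -1.09 ± 0.17 for pie-1 and pie-1/pal-1 minus N2 in the middle window, and -1.49 ± 0.27 for the difference of the early fall in pie-1. The dimmest gave -1.36 ± 0.20 and -1.40 ± 0.18 in the middle window, but already early its differences to N2 were -1.11 ± 0.20 in mex-3/skn-1 embryos, -0.93 ± 0.20 in pie-1 embryos and -1.17 ± 0.18 in pie-1/pal-1, the first and the last called. Its difference of the early fall in pie-1 was -0.43 ± 0.28, not called. Read by the dimmest probe set, the late minus early fall was 2.9-fold, 4.7-fold and 3.6-fold in mex-3/skn-1, then pie-1, then pie-1/pal-1, against 5.2-fold in N2, so that the order of mutants and N2 was the opposite of that with the brightest. The difference of the late minus early change to N2 in pie-1 was called with the second brightest alone, at -1.07 ± 0.25, against -0.77 ± 0.23 with the brightest and 0.14 ± 0.26 with the dimmest. The lower middle level in both pie-1 genotypes was called with all 3 probe sets, and the larger early fall in pie-1 with 2 of them. meg-2 was dim throughout. Its early arrays read 2.93 to 3.93 (median 3.46) in mex-3/skn-1, 3.01 to 3.62 (median 3.26) in pie-1, 2.78 to 3.71 (median 3.32) in pie-1/pal-1 and 3.30 to 4.51 (median 4.03) in N2. Late arrays read 2.71 to 3.45 (median 3.10) in mex-3/skn-1, 2.82 to 3.75 (median 3.17) in pie-1, 2.94 to 3.57 (median 3.06) in pie-1/pal-1 and 2.88 to 3.75 (median 3.13) in N2, so that windows and genotypes all overlapped. meg-2 was called in no comparison, and its largest change, in N2, was -0.80 ± 0.10, limma adjusted p = 1.7e-11.

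CGH-1 is a DDX6-type helicase that protects stored maternal RNAs, and XND-1 is a chromatin protein of the germline. xnd-1 read 3.35 to 5.99 (median 4.21) in early mex-3/skn-1 arrays, 3.35 to 5.71 (median 4.11) in early pie-1 arrays, 2.85 to 5.70 (median 4.07) in early pie-1/pal-1 arrays and 4.86 to 6.65 (median 5.91) in early N2 arrays. Late arrays read 2.98 to 3.88 (median 3.46) in mex-3/skn-1, 2.87 to 3.73 (median 3.19) in pie-1, 2.98 to 3.55 (median 3.28) in pie-1/pal-1 and 3.37 to 4.01 (median 3.65) in N2. Late arrays lay below all early ones in N2 and overlapped them in each mutant. The early difference to N2 was -1.59 ± 0.16, -1.51 ± 0.16 and -1.70 ± 0.15 in mex-3/skn-1, then pie-1, then pie-1/pal-1 (largest limma adjusted p = 2.9e-12), and no late difference was called. xnd-1 fell by 1.19 ± 0.15 in pie-1 and by 2.23 ± 0.14 in N2 (log2), while the change was -0.89 ± 0.16 in mex-3/skn-1 and -0.95 ± 0.14 in pie-1/pal-1. The pie-1 call was lost with arrays centred on the brighter probe sets, at -0.87. nos-1, pgl-1, cgh-1 and xnd-1 were each called lower than N2 in all 3 mutants early and in none late. For pgl-1 and xnd-1 the late medians lay close to the array medians (3.24 to 3.41) in all 4 genotypes. A late difference between genotypes may be compressed there, which was not tested.

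Over the early window as a whole, cgh-1 had the largest difference of the 10 genes between each mutant and N2, but its N2 level alternated between times. Early arrays read 4.41 to 5.73 (median 5.11) in mex-3/skn-1, 4.92 to 6.22 (median 5.28) in pie-1, 4.69 to 5.86 (median 5.35) in pie-1/pal-1 and 6.07 to 8.47 (median 7.98) in N2, and mex-3/skn-1 as well as pie-1/pal-1 did not overlap N2. The early difference to N2 was -2.49 ± 0.15, -2.19 ± 0.15 and -2.33 ± 0.14 (largest limma adjusted p = 5.5e-21). Late arrays read 4.15 to 4.90 (median 4.50) in mex-3/skn-1, 4.19 to 5.71 (median 4.68) in pie-1, 4.32 to 5.13 (median 4.53) in pie-1/pal-1 and 4.13 to 6.31 (median 5.44) in N2. The late minus early difference was -0.60 ± 0.15, -0.72 ± 0.15 and -0.63 ± 0.13 in the mutants, against -2.33 ± 0.14 in N2.

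The labels name N2 replicates by letters at 0, 41, 101 and 143 min and by numbers at 23, 53, 83, 122 and 186 min, while 66 min has both kinds. N2 cgh-1 means in order of time were 8.15, 6.47, 8.23, 5.61, 6.01, 4.80, 6.01, 4.76, 6.18 and 4.19, high at lettered and low at numbered times. At 66 min the lettered arrays read 6.68 and 6.14 and the numbered arrays 5.68 and 5.55. With only the times of numbered N2 arrays the early difference to N2 was -1.001 in mex-3/skn-1 embryos, -1.26 in pie-1 embryos and -0.96 in pie-1/pal-1, the last under 2-fold, and only 23 min entered the early window. There cgh-1 was not the gene with the largest difference: pgl-1 was -2.27, -1.56 and -1.25 and nos-1 -1.45, -1.62 and -1.75 in the same order. What differed between lettered and numbered arrays is not stated in the labels, and its part in the cgh-1 values was not tested. Of the other 9 genes, lettered minus numbered N2 arrays at 66 min ranged over -0.08 to 0.92, the highest being nos-1. The second cgh-1 probe set gave early differences of -2.01 ± 0.16, -1.80 ± 0.16 and -1.70 ± 0.14.

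**Figure D4:**
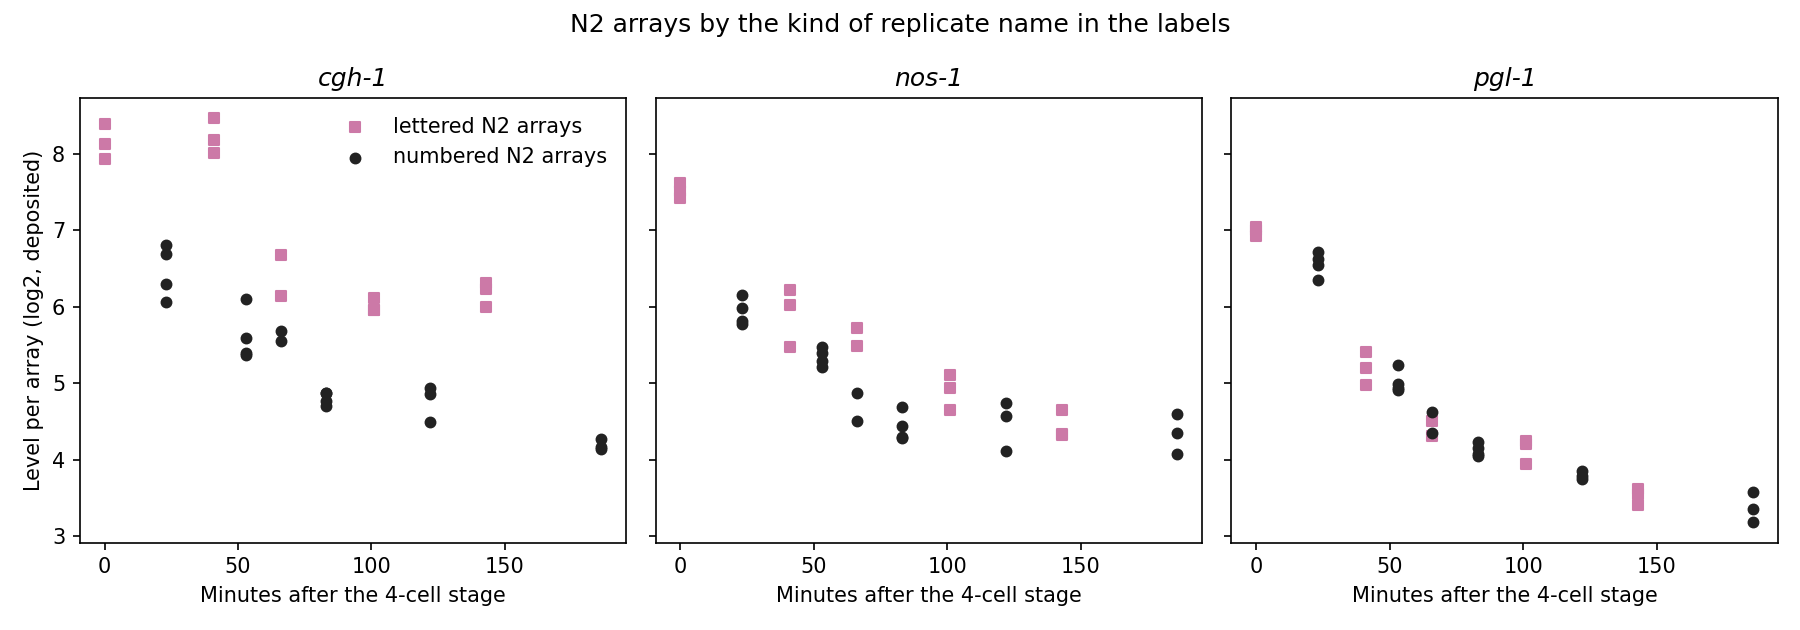
Single N2 arrays (log2 level) of cgh-1, nos-1 and pgl-1 against minutes after the 4-cell stage, with arrays whose replicate name is a letter as squares and those with a number as circles. For cgh-1 the lettered arrays lie above the numbered arrays of neighbouring times, and for pgl-1 both kinds follow 1 course.

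Counted over the 10 genes, the called differences between mutants and N2 were all towards lower levels, and the genes concerned changed with the window. In the early window 5 genes were lower in mex-3/skn-1 (nos-1, pgl-1, deps-1, cgh-1 and xnd-1; background 6.82%). In pie-1 (2.37%) and pie-1/pal-1 (3.78%) 7 genes were lower, the same 5 with nos-2 and pgl-3. In the middle window none was called in mex-3/skn-1 (3.48%), although 7 had an unadjusted p under 0.05 in limma. There 5 were lower in pie-1 (nos-1, nos-2, glh-1, deps-1 and meg-1; 3.68%) and 6 in pie-1/pal-1 (nos-1, nos-2, pgl-1, deps-1, meg-1 and xnd-1; 4.19%). In the late window 1 was lower in mex-3/skn-1 (nos-2; 6.12%), and nos-2, glh-1 and deps-1 were lower in pie-1 (2.89%) and likewise in pie-1/pal-1 (2.06%). In mex-3/skn-1 1 of the 10 genes lay below N2 without overlap early (1.77% of all probe sets did), 0 in the middle window (2.01%) and 0 late (1.22%). The counts were 0 (1.10%), 2 (2.65%) and 1 (1.25%) in pie-1 and 1 (1.40%), 4 (2.89%) and 2 (0.497%) in pie-1/pal-1 for the same windows. These comparisons share the N2 arrays. RNA quality and array brightness moved with them: the GAPDH difference was higher in each mutant, and probe sets whose mean reached 5 had a median difference to N2 of -0.51, -0.19 and -0.30 early, -0.28, -0.43 and -0.32 in the middle and -0.50, -0.34 and -0.24 late (log2, mutants in the same order). With the GAPDH difference of each array in the fit, the counts of lower genes were 4, 7 and 7 early, 1, 4 and 5 in the middle and 0, 3 and 4 late. With arrays centred on the brighter probe sets the counts of lower genes were 4, 6 and 6 early, 0, 1 and 2 in the middle and 0, 2 and 2 late. The shares of all probe sets called with the GAPDH term or the centring are not given here. A changed count is therefore not set against its own background. Under that centring nos-2 was -1.73 and -1.76 in the middle window of both pie-1 genotypes. Every known scan day holds 1 genotype, and 26 of the 27 pie-1 arrays have no description file, so scan day and genotype cannot be told apart in these comparisons.

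**Figure D5:**
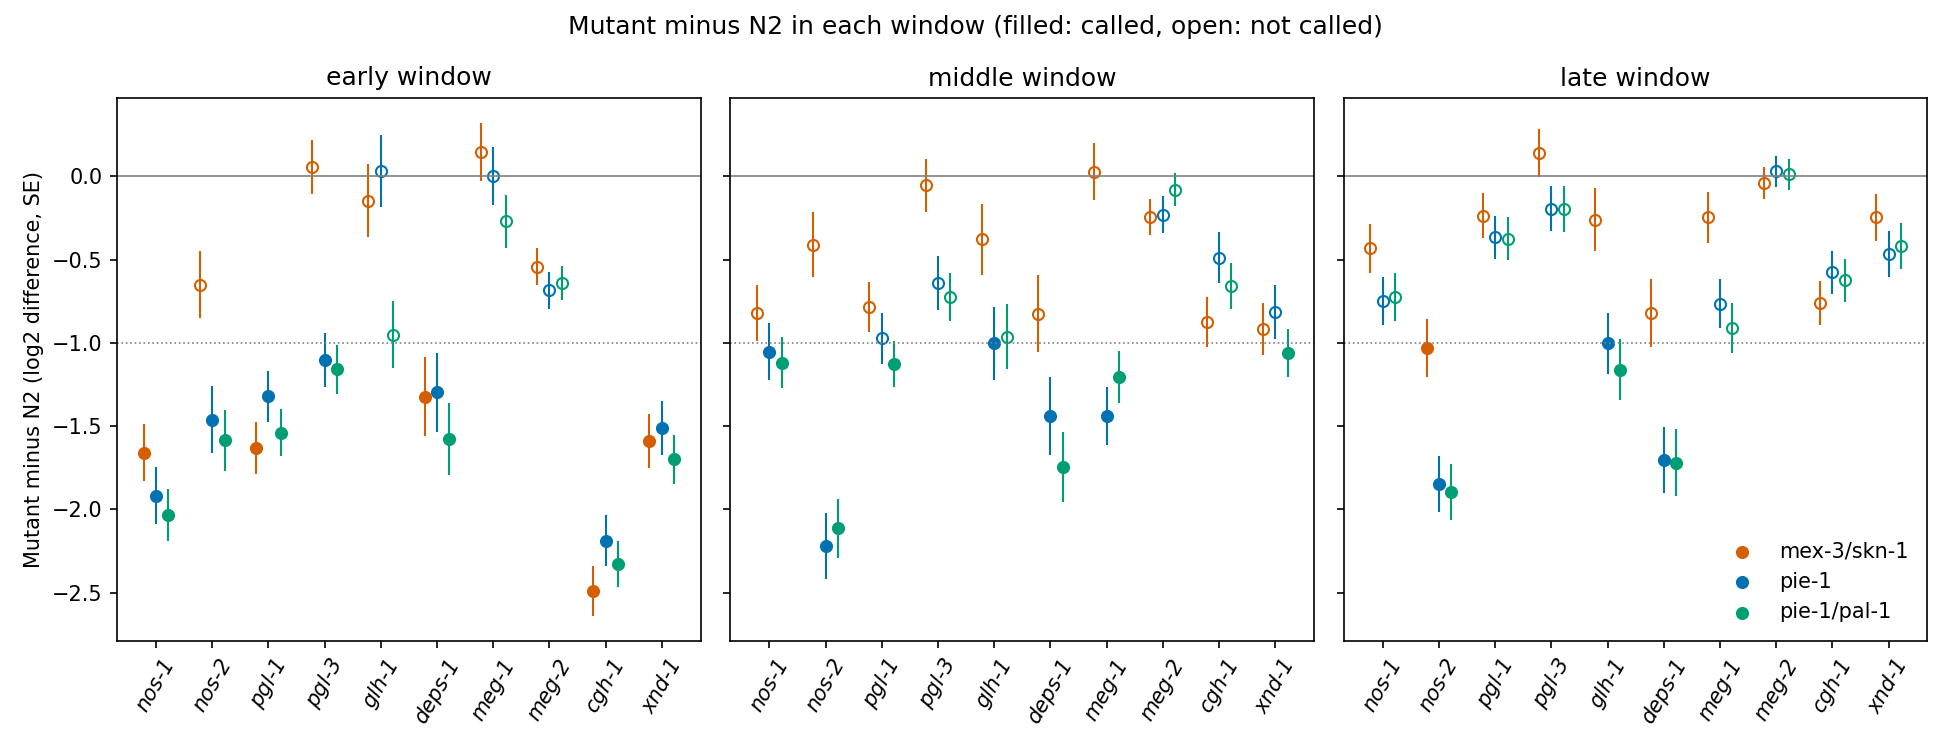
Difference of mex-3/skn-1, then pie-1, then pie-1/pal-1 to N2 (log2, with SE) for each gene in the early, middle and late window, with called differences filled. Early, with all 3 times, cgh-1 lies lowest in all 3 mutants. In the middle and late windows nos-2 lies lowest in both pie-1 genotypes.

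The change over time was compared with that of N2 directly, as the difference of 2 differences. Late minus early changes differed from N2 for 4 genes in mex-3/skn-1 (cgh-1, xnd-1, pgl-1 and nos-1; background 3.70%), all towards a smaller fall. They differed for 4 genes in pie-1 (0.887%), with a smaller fall of cgh-1, nos-1 and xnd-1 and a larger fall of glh-1, and for 4 genes in pie-1/pal-1 (1.17%), with a smaller fall of cgh-1, nos-1, xnd-1 and pgl-1. For cgh-1 these differences were 1.73 ± 0.20, 1.61 ± 0.20 and 1.70 ± 0.19 in mex-3/skn-1, then pie-1, then pie-1/pal-1. For nos-2 they were -0.38 ± 0.26, -0.39 ± 0.26 and -0.31 ± 0.25, none called. Each gene with a smaller fall was also called lower than N2 early in that mutant, and the early arrays enter both values. The late medians of pgl-1 and xnd-1 lay close to the array medians in all 4 genotypes. In pie-1 several of these calls rested on single arrays. glh-1 was -0.93 to -0.999 and no longer called without any 1 of 9 (N2 0 min replicate C, 41 min D and 186 min 4, and pie-1 23 min replicate 4, 41 min 2, 122 min 3, 143 min 3 and 4 and 186 min 3), and its second probe set gave -0.10 ± 0.20. xnd-1 was 0.94 to 0.99 and not called without any 1 of 4 (pie-1 0 min replicate 3, 23 min 2, 41 min 4 or 186 min 3). With numbered N2 times the cgh-1 differences were 0.92, 1.39 and 0.97. Early falls (middle minus early, compared after the group means had been seen) differed from N2 for 1 gene in mex-3/skn-1 (cgh-1; 2.19%), 2 in pie-1 (cgh-1 and meg-1; 0.417%) and 1 in pie-1/pal-1 (cgh-1; 0.319%). Within genotypes 4 genes had already fallen by the middle window in mex-3/skn-1 (nos-2, pgl-3, deps-1 and meg-1; 2.63%), 4 in pie-1 (nos-2, pgl-1, deps-1 and meg-1; 6.60%), the same 4 genes in pie-1/pal-1 (4.82%) and 8 in N2 (5.19%).

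None of the 10 genes was called between pie-1/pal-1 and pie-1 in the early window (limma; background 0.0399%; 1 gene at an unadjusted p under 0.05) or in the late window (background 0.00887%; 0 genes at an unadjusted p under 0.05). The gene nearest the limit was glh-1 early, with 3.77 to 6.26 (median 5.32) in pie-1/pal-1, against 5.30 to 7.66 (median 5.76) in pie-1, and a difference of -0.98 ± 0.21, limma adjusted p = 0.0055. The other 9 early differences lay between -0.28 and 0.04, and the 10 late differences between -0.16 and 0.05, with SEs of up to 0.20 late. The late median of pal-1 itself was 6.39 in pie-1/pal-1, against 6.32 in pie-1. The late comparison is thus not one between lower and higher pal-1 RNA. Leaving out any of 8 single early arrays brought glh-1 past the limit (pie-1 0 min replicate 3, 23 min replicate 3 or 41 min replicate 4, or pie-1/pal-1 0 min replicate 4, 23 min replicate 2 or 4, or 41 min replicate 1 or 4), and the count was then 1.

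Scan days and windows are partly aligned in N2, where the first of 3 scan days holds 9 of the 10 early arrays and none of the 12 late ones. With scan day as a fixed term, the late minus early change in N2 was -3.37 for deps-1, -3.02 for meg-1, -2.50 for nos-2 and -0.98 for glh-1, and 8 genes were again called. Within single scan days, genes at least 2-fold lower were counted with no test, beside the share of all probe sets. On the first N2 day 8 of 10 were lower in the middle than in the early window (8 against 9 arrays; 5.30%). On the third N2 day, with a single early array, the counts were 3 (2 against 1 arrays; 5.57%) for middle minus early and 7 (2 against 1 arrays; 8.08%) for late minus early. The pie-1/pal-1 arrays of both windows lay on 2 days, with counts for late minus early of 6 (8 against 6 arrays; 6.50%) and 4 (5 against 5 arrays; 5.99%) and for middle minus early of 5 (5 against 6 arrays; 5.77%) and 3 (5 against 5 arrays; 3.65%). In mex-3/skn-1 the late minus early counts were 6 (4 against 5 arrays; 7.77%) and 7 (6 against 2 arrays; 5.34%) on 2 days, and on the second of these the middle minus early count was 7 (6 against 2 arrays; 3.78%). On another day, 1 mex-3/skn-1 array of 101 min (replicate 4) stood against 1 of 41 min (replicate 3), and the count was 0 (2.64%; for middle minus early also 0, 1.47%), with meg-1 at -0.38 and deps-1 at -0.01. That 101 min replicate 4 held the highest late mex-3/skn-1 level of 6 genes, nos-2, glh-1, deps-1, meg-1, cgh-1 and xnd-1. The same day held replicate 3 of mex-3/skn-1 at 66 min, with nos-2 at 6.25 where the other array of that time read 4.17. It also held replicate 4 at 53 min, with nos-2 at 6.89 where the other array of that time read 6.55.

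As a description, the 10 genes' group means went together over the 40 groups, with pairwise Pearson correlations of 0.28 to 0.96 and a median of 0.78 over 45 pairs that share arrays. The closest pairs were pgl-1 with xnd-1 (0.96) and nos-2 with deps-1 (0.94), and the loosest was glh-1 with meg-2 (0.28). The other genes with the most alike pattern over the 40 group means, among 5281 candidates, were pzf-1 (0.96) and hmg-12 (0.95) for nos-1 and dvc-1 (0.97) and spsb-2 (0.97) for nos-2 (Pearson's r). For the P granule genes they were aakg-5 (0.97) and inx-21 (0.96) for pgl-1, R02F2.4 (0.94) and simr-1 (0.93) for pgl-3, immt-2 (0.85) and tofu-2 (0.85) for glh-1 and B0261.7 (0.97) and rmd-1 (0.97) for deps-1. For the rest they were ZK632.9 (0.97) and W06B4.1 (0.97) for meg-1, T24D1.3 (0.83) and C06A1.4 (0.81) for meg-2, ndrr-1 (0.90) and T22D1.3 (0.90) for cgh-1 and aakg-5 (0.97) and pyk-1 (0.96) for xnd-1. pgl-1 and xnd-1 had the same gene, aakg-5, as their nearest. glh-1, meg-2 and cgh-1 had the lowest likeness to any candidate among the 10.

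Other germ granule genes fell over the same windows. Of 27 listed beyond the 10, 25 were measured. Of these 14 fell in mex-3/skn-1 embryos (background 5.81%), 18 in pie-1 (8.28%), 17 in pie-1/pal-1 (6.13%) and 18 in N2 (8.24%), and none rose. Their median change was -1.39, -1.75 and -1.78 in the mutants, against -1.90 in N2. In N2 the smallest p-values were those of gld-3 (-3.67 ± 0.16), a partner of the poly(A) polymerase GLD-2, pos-1 (-4.10 ± 0.23), a CCCH zinc finger translational regulator, mip-2 (-3.56 ± 0.20), a LOTUS-domain granule protein, and mex-1 (-2.25 ± 0.13), another CCCH protein (log2 ± SE). In the middle window 6 of the 25 were lower in pie-1 than in N2 (background 3.68%) and 8 in pie-1/pal-1 (4.19%). In mex-3/skn-1 1 was lower, near the background share of 3.48%. Of 15 measured genes of RNA decay and P bodies (17 listed), 5, 6, 3 and 5 fell in mex-3/skn-1, then pie-1, then pie-1/pal-1, and in N2 (background 5.81%, 8.28%, 6.13% and 8.24%). In each genotype 1 rose, near the background shares of 4.11%, 5.46%, 6.80% and 6.70%. It was ain-1 (2.56 ± 0.13 in N2), which encodes an Argonaute partner in microRNA silencing. The Y-box genes cey-2 (-4.66 ± 0.24) and cey-3 (-3.16 ± 0.24) and patr-1 (-1.13 ± 0.13), a decapping activator, were among those that fell in N2.

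Of 13 measured Pumilio, Nanos and germline chromatin genes (15 listed), 4 fell in mex-3/skn-1 embryos (background 5.81%), 6 in pie-1 (8.28%), 5 in pie-1/pal-1 (6.13%) and 6 in N2 (8.24%). The Pumilio genes puf-7 (-3.57 ± 0.16), puf-5 (-3.56 ± 0.22), puf-11 (-2.93 ± 0.19) and puf-8 (-1.12 ± 0.11) had the smallest p-values in N2. The gene of that list that rose, named here after its values were seen, was puf-12, at 1.37 ± 0.21 in mex-3/skn-1 embryos, 1.32 ± 0.18 in pie-1/pal-1 and 1.30 ± 0.19 in N2. Of all probe sets 4.11%, 6.80% and 6.70% rose in these genotypes. Of 16 measured somatic regulators that are switched on in the embryo, 5 rose in mex-3/skn-1 embryos (background 4.11%), 10 in pie-1 (5.46%), 10 in pie-1/pal-1 (6.80%) and 13 in N2 (6.70%). Among them in N2 were ceh-43 (4.80 ± 0.15), ceh-36 (3.53 ± 0.13), pha-4 (3.94 ± 0.15) and elt-1 (3.42 ± 0.23). The somatic gene that fell in pie-1, where 8.28% of all probe sets fell, was lin-26 (-1.26 ± 0.16), also named after its values were seen.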

How the data were processed

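Levels are log2 values as deposited by the authors, 1 per probe set and array, and the log2 scale was read from their range. How probes were summarised and normalized, and by which tools, are not given in the sources used here. Genotype and time come from the labels. The 77 control probe sets were left out, and 22548 were tested. Gene names come from the platform table, updated through RefSeq. limma 3.58.1 (R 4.3.3) fitted 1 mean to each of the 40 groups, with moderated contrasts (eBayes) on 83 residual degrees of freedom, with Benjamini-Hochberg adjustment over all probe sets of a contrast. Python 3.11.15 and pandas made the counts. The 10 genes, the lists, the windows and the rule for names were chosen with earlier results of these data known. The rule names the 10 genes, the 2 most alike other genes of each (Pearson over the 40 group means, among probe sets with a group mean of at least 5 and a range of at least 2), and up to 4 genes of each related list with the smallest adjusted p. The steps were tested on simulated data. No sequences and no coordinates are given, and precision is limited by the number of arrays.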

Additional observations from a re-analysis of the deposited data

Results flagged for a closer look

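In groups of 4 arrays, 5 of 120 gene and group combinations held an array far from the others, where chance alone gives about 1 in 20. nos-1 read 4.21 in replicate 3 of mex-3/skn-1 at 122 min, where the nearest array read 3.65. pgl-3 read 3.20 in replicate 3 of pie-1/pal-1 at 66 min, where the nearest read 3.40. deps-1 read 8.89 in replicate 1 of N2 at 23 min, where the nearest read 8.52. meg-1 read 4.81 in replicate 7 of mex-3/skn-1 at 83 min, where the nearest read 5.64, and 4.71 in replicate 3 of pie-1/pal-1 at 122 min, where the nearest read 3.91.

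The late minus early change differed from that of N2, by limma's test of the difference itself, for 4 genes in each mutant (log2, mutant minus N2, positive where the fall was smaller). In mex-3/skn-1 the values were 1.73 for cgh-1, 1.34 for xnd-1, 1.39 for pgl-1 and 1.23 for nos-1. In pie-1 they were 1.61 for cgh-1, 1.17 for nos-1, 1.04 for xnd-1 and -1.04 for glh-1. In pie-1/pal-1 they were 1.70 for cgh-1, 1.31 for nos-1, 1.28 for xnd-1 and 1.17 for pgl-1. The early fall of cgh-1 differed from N2 by 1.61 in mex-3/skn-1 embryos, 1.70 in pie-1 embryos and 1.67 in pie-1/pal-1, and that of meg-1 by -1.44 in pie-1.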

How the results depend on the processing

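Fits other than the one reported changed some counts of genes called (of 10), and the causes were not tested. The share of all probe sets called under each of these fits is not given here. No changed count is therefore set against its own background. For mex-3/skn-1 minus N2 late, the 1 gene was 0 with the GAPDH covariate, centring on brighter probe sets, quantile normalization, scan day as a random block, numbered N2 times, without both 143 min arrays (chosen after seeing the data) or without the outlying arrays, and 3 with lettered N2 times. For the middle window the 0 in mex-3/skn-1 was 1 with the GAPDH covariate and 4 with narrow windows, the 5 in pie-1 was 1 with centring on brighter probe sets and 2 with quantile normalization, and the 6 in pie-1/pal-1 was 2 with either. Quantile normalization left 2 of 4 differences of the late minus early change in each mutant. Numbered N2 times gave 2 such differences in pie-1/pal-1 and 0 early-fall differences in both pie-1 genotypes, where 2 and 1 were reported. The 4 genes that fell in pie-1/pal-1 were 7 with narrow windows or numbered N2 times. Lettered N2 times gave 5 genes for pie-1/pal-1 minus N2 late in place of 3, and 1 for pie-1/pal-1 minus pie-1 early in place of 0. A fixed scan day term gave 2 early-fall differences in mex-3/skn-1 in place of 1.

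Replicate numbers were not taken to pair arrays across genotypes, since 15 of 74 same-numbered pairs at 1 time correlated over 0.1, against 98 of 371 differently numbered pairs. Within pie-1/pal-1 same-numbered arrays of different times did deviate together more often (94 of 122 pairs over 0.1, against 80 of 396 differently numbered pairs), within pie-1 44 of 100 against 35 of 227. With the replicate block across genotypes the middle counts were 1 in mex-3/skn-1 and 3 in pie-1, the late count in mex-3/skn-1 was 0, and pie-1/pal-1 minus pie-1 early was 1. The replicate block within genotype gave 8 genes falling in N2, as without it, and moved no count that it could give by over 1.5 times. This block, like the fixed scan day term, cannot compare levels between genotypes. The counts of mutants minus N2 in each window, and of pie-1/pal-1 minus pie-1, were therefore not checked by either.

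Each of the 86 early and late arrays was left out in turn, and middle arrays were not. mex-3/skn-1 minus N2 late ranged over 0 to 1, and differences of the late minus early change in pie-1 over 2 to 5, with 2 without pie-1 0 min replicate 3 or 186 min replicate 3. Early-fall differences in pie-1/pal-1 ranged over 1 to 2, with 2 without 0 min replicate 2, and pie-1/pal-1 minus pie-1 early over 0 to 1. Where either value was called, the sign changed once, for meg-1 in mex-3/skn-1 minus N2 early, at -1.11 with its dimmest probe set. Signs also changed among differences called in neither, as for meg-1 late minus early in mex-3/skn-1 against N2, at 0.84 with that probe set and -0.39 with the brightest.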
